A study of Mus musculus with 60 samples.

Results

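The genes described here are 10 members of the Nrf2 antioxidant and detoxification pathway, measured in lung, liver and forestomach of Muta™Mouse males exposed to benzo(ghi)perylene (BghiP), a polycyclic aromatic hydrocarbon. They were found by matching the RefSeq accession of each array probe to the member symbols, which gave 12 probes for 10 genes out of 55681 probes and 20018 named genes. Ephx1 and Hmox1 had 2 probes each, and the brighter probe of a gene stands for it unless stated otherwise. Muta™Mouse is a transgenic strain that carries a bacterial lacZ reporter for mutation tests, and all 20 animals, controls included, were of this strain and were dosed by gavage in olive oil at about 10 weeks of age.

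The D0 mice received vehicle alone for 28 days. Over the same time the daily BghiP dose was 6.25 mg per kg body weight (mg/kg-bw/day) in the D1 mice, 12.5 in the D2 mice and 25 in the D3 mice. Each dose had 5 mice, and RNA was taken from sections of lung, liver and forestomach of each mouse 72 hours after the final dose, so that the 60 arrays fall into 12 groups of 5. Values are given as log2 of the Cy5 signal of the tissue over that of a common reference RNA pooled from mouse cell lines, labelled with Cy3, on the same spot. A value of 0 therefore means the level of the reference, and 1 unit is a doubling. Values of a probe were compared between tissues and doses, and never with those of another probe.

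Nrf2, encoded by Nfe2l2, is a transcription factor that is held in the cytoplasm and marked for breakdown by its sensor protein Keap1. Electrophiles and oxidants modify Keap1, Nrf2 then enters the nucleus, pairs with small Maf proteins and binds antioxidant response elements in front of genes for glutathione synthesis, thioredoxin recycling, quinone reduction and heme breakdown. Oxidized metabolites of polycyclic aromatic hydrocarbons are substrates of several of these enzymes, and Nqo1 is a widely used readout of Nrf2 activity.

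Promoter windows of 300 bases, from 250 before to 50 after a start site, were available for 8 of the 10 genes in a RefSeq table of build GRCm38.p6, and none was used for Gclc and Hmox1. The core of the antioxidant response element, TGACNNNGC, and the related Nrf2 and Maf site TGANTCAGC were searched on both strands, and 1 stretch can match both. The first was found in 12.4% and the second in 1.19% of all 32851 windows in the table, and at least 1 of them in 13% of windows. Among the members, 4 genes held a match, namely Nfe2l2, Gclm, Srxn1 and 1 of 3 windows of Txnrd1, and 4 held none, namely Keap1, Slc7a11, Nqo1 and Ephx1. The windows shown are those of the enzymes on which the later results turn, with matches in capitals and all other bases in lower case, each read 5′ to 3′ on the strand of its gene. They lie at chr2:152105274-152105573 (+ strand, Srxn1), chr3:122245307-122245606 (+, Gclm), chr10:82858956-82859255 (+, Txnrd1), chr8:107403156-107403455 (-, Nqo1) and chr1:181017520-181017819 (-, Ephx1).
Srxn1: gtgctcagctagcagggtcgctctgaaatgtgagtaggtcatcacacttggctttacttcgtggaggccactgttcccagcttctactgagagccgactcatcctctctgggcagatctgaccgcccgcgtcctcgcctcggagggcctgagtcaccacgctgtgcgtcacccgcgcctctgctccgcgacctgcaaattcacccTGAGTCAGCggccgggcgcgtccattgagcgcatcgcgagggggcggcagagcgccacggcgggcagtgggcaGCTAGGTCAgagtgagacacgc
Gclm: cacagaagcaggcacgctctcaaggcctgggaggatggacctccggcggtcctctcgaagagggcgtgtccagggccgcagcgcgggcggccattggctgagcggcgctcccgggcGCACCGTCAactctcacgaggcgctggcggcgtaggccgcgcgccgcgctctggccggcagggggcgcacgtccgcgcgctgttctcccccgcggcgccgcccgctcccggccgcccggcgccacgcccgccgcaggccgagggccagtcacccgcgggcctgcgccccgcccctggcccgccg
Txnrd1: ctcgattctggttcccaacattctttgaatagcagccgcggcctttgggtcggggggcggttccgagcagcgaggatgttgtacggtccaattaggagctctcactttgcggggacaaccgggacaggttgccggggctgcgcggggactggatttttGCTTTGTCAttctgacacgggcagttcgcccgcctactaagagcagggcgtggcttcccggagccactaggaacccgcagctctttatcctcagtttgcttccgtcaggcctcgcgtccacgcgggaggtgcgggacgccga
Nqo1: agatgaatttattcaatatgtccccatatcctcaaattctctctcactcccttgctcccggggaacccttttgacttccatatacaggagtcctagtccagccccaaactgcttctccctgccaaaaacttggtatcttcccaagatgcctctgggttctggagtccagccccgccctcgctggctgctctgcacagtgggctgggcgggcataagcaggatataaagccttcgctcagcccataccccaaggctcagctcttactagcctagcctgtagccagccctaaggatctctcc
Ephx1: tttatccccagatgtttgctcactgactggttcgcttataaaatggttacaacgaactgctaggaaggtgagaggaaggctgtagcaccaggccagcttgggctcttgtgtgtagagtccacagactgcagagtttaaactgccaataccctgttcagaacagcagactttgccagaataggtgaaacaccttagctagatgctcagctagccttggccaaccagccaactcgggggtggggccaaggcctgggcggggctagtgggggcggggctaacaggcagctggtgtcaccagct
Srxn1 held both kinds of site, TGAGTCAGC on the gene's strand and a TGACNNNGC match on the other strand. The windows of Nqo1 and Ephx1, which gave the widest tissue difference and the clearest dose difference in these data, held neither string, which says only that these letters do not occur in these 300 bases.

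Labelled tissues were checked against lists of marker genes. The mean log2 ratio of 6 alveolar genes was 5.68 to 6.42 in lung, that of 6 liver genes 6.98 to 8.21 in liver and that of 8 squamous genes 4.41 to 5.65 in forestomach. Between 34.9% and 58.6% of probes were well above background in lung, 36.3% to 48.3% in liver and 21.2% to 53.3% in forestomach. Lung and forestomach arrays shared 5 slides and liver arrays filled 3 others, with 1 dose always in the same column, so that dose and column on the slide cannot be told apart. Liver shared no slide with another tissue, so that tissue and slide cannot be told apart where liver is compared. Some libraries had high levels of genes of other tissues. The mean log2 ratio of 8 skeletal muscle genes was 4.93 in the lung of D0 mouse 1 and at most 0.44 in the other lungs, and that of 8 squamous genes was 4.43 there and at most -0.1 in the other lungs. The liver genes averaged 4.84 in the lung of D3 mouse 20 and at most 1.19 in the other lungs, and ranged from 0.04 to 5.25 in forestomach. The alveolar genes averaged 4.65 in the forestomach of D0 mouse 2 and at most 1.35 in the other forestomachs. Genes of the glandular stomach (7 measured, among them the proton pump subunits Atp4a and Atp4b) ranged from 0.22 to 7.63 over the forestomach arrays.

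The largest differences among the 10 genes lay between tissues, averaged over doses. A call needed 1.5-fold or more and an adjusted p not above 0.05 in limma. Slc7a11 passed the filter of 5 arrays well above background in forestomach alone, so its calls against forestomach followed from the filter, and it was left out of these counts. Of the 9 members that passed in all 3 tissues, 7 were called in each pair of tissues. The background was high, since of the probes that passed in both tissues 49.7% were called for lung against liver, 39.1% for lung against forestomach and 44.8% for liver against forestomach. Lung was higher than liver for 2 members and lower for 5 (26.5% and 23.1% of probes). Lung was higher than forestomach for 3 and lower for 4 (20.5% and 18.5%), and liver was higher than forestomach for 4 and lower for 3 (21.1% and 23.7%). The median member difference (lung minus liver, lung minus forestomach, liver minus forestomach) was -0.74, -0.55 and 0.57 log2 units, against -0.03, -0.03 and 0 over those probes. In the same order, with Slc7a11 the counts were 7, 8 and 8 of 10, against 45.7%, 34.6% and 39% of all 33243 probes tested. In such bulk RNA, fewer cells of a type and less RNA per cell cannot be told apart.

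**Figure D1:**
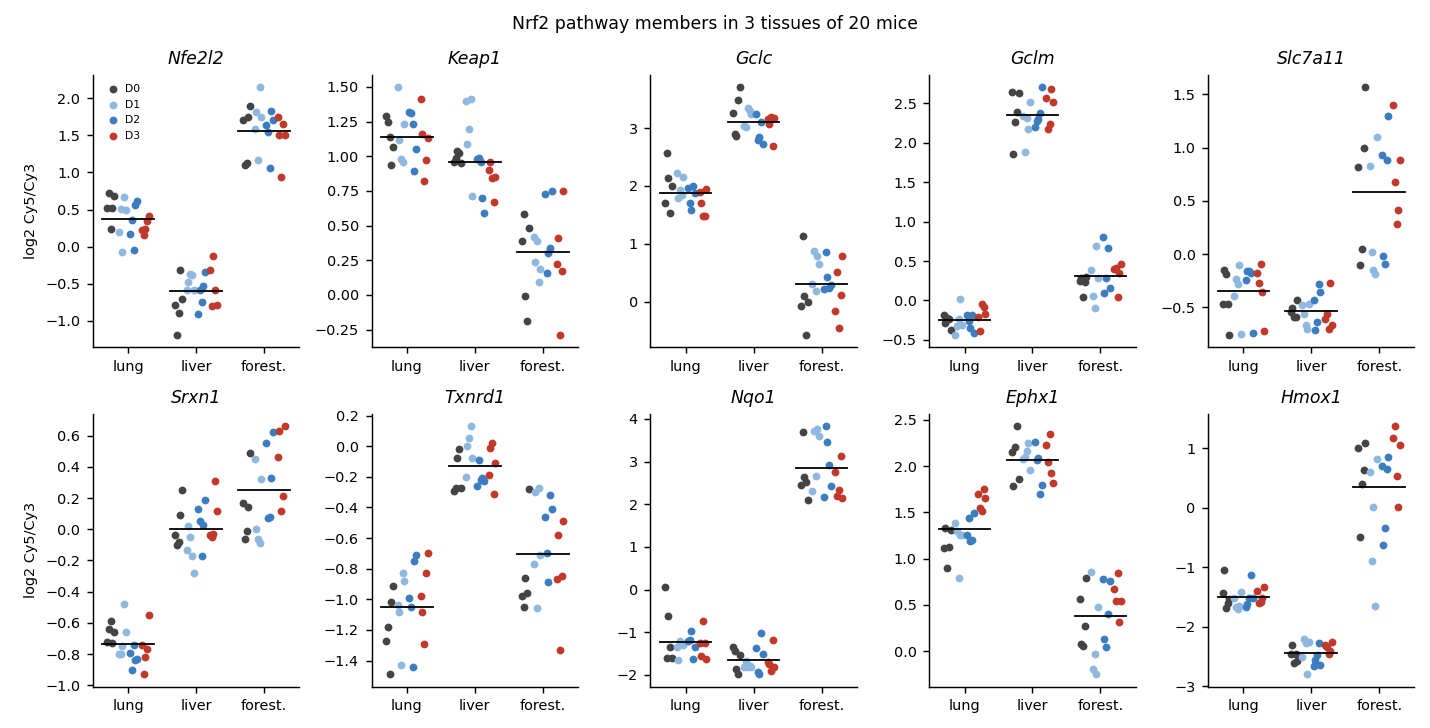
Log2 Cy5/Cy3 of the brighter probe of each of the 10 genes (vertical axis, own scale per gene) in lung, liver and forestomach, 1 point per mouse coloured by dose, with a line at the mean of 20 mice. Nqo1 sat between 2.09 and 3.83 in forestomach and at 0.05 or below in the other tissues, while Gclc and Gclm were highest in liver.

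The regulators did not run in parallel. Nfe2l2 ranged from 0.94 to 2.15 in forestomach (median 1.64), from -0.07 to 0.72 in lung (median 0.38) and from -1.19 to -0.12 in liver (median -0.59). The 3 ranges did not overlap, and all 20 mice had the order forestomach over lung in their own tissues. Forestomach exceeded liver by 2.16 ± 0.09 log2 units (SE, 4.46-fold, adjusted p = 1.98e-29) and lung by 1.18 ± 0.09 (2.27-fold, adjusted p = 5.87e-18), and lung exceeded liver by 0.98 ± 0.09 (adjusted p = 3.38e-15). Keap1, the inhibitor, had the opposite end tissue, with values from -0.29 to 0.75 in forestomach (median 0.32) against 0.82 to 1.5 in lung (median 1.14) and 0.59 to 1.41 in liver (median 0.96). The lung and forestomach ranges did not overlap, whereas liver overlapped with both. Keap1 was 0.83 ± 0.07 higher in lung than in forestomach (1.78-fold, adjusted p = 4.31e-15) and 0.66 ± 0.07 higher in liver (1.58-fold, adjusted p = 9.62e-12), and the lung to liver difference of 0.18 ± 0.07 was below 1.5-fold.

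Both subunits of glutamate-cysteine ligase, the enzyme of the first step of glutathione synthesis, were highest in liver. The catalytic subunit Gclc ranged from 2.69 to 3.71 in liver, from 1.47 to 2.57 in lung and from -0.58 to 1.14 in forestomach, with no overlap between tissues. Liver exceeded forestomach by 2.8 ± 0.1 (6.96-fold, adjusted p = 6.97e-31) and lung by 1.23 ± 0.1 (2.35-fold, adjusted p = 6.54e-16). The modifier subunit Gclm ranged from 1.86 to 2.71 in liver, from -0.44 to 0.02 in lung and from -0.1 to 0.81 in forestomach. Liver stood clear of the other tissues, by 2.6 ± 0.07 over lung (6.05-fold, adjusted p = 3.43e-38) and 2.05 ± 0.07 over forestomach (4.14-fold, adjusted p = 2.98e-33). With the processed signals, which are background-subtracted, liver exceeded lung by 3.5 and forestomach by 2.67. Lung and forestomach ordered the subunits differently. Gclc was 2.96-fold higher in lung than in forestomach (adjusted p = 1.39e-19), while Gclm was 0.55 ± 0.07 lower in lung, a difference of 1.46-fold that fell short of the minimum.

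Slc7a11, the cystine carrier that feeds glutathione synthesis, was dim. Its probe was well above background on 12 of 20 forestomach arrays, 1 of 20 lung arrays and none of 20 liver arrays. Forestomach values ran from -0.19 to 1.57 (median 0.75). On channel signals normalized between arrays, which without dye swaps are open to dye bias, its forestomach mean of 6.87 stood against a liver mean bounded at 6.06, which puts forestomach at least 1.76-fold higher than liver (measured liver mean 5.87). No fold can be given between lung and liver.

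The thioredoxin arm was spread over a narrower range. Srxn1, which reduces overoxidized peroxiredoxins, ranged from -0.93 to -0.48 in lung, from -0.28 to 0.31 in liver and from -0.09 to 0.66 in forestomach. Lung lay below both other tissues without overlap, by 0.74 ± 0.06 against liver (1.67-fold, adjusted p = 9.71e-18) and by 0.99 ± 0.06 against forestomach (1.99-fold, adjusted p = 1.72e-22). Txnrd1, the cytosolic thioredoxin reductase, was highest in liver (-0.31 to 0.13), with -1.33 to -0.27 in forestomach and -1.49 to -0.7 in lung, and neighbouring ranges overlapped. The lung to liver difference of 0.92 ± 0.07 was called (1.89-fold, adjusted p = 2.18e-16), and the liver to forestomach difference of 0.57 ± 0.07 reached 1.49-fold, just below the minimum. It passed the minimum when D0 mouse 5, D1 mouse 7, D1 mouse 9, D2 mouse 14 or D3 mouse 20 was left out, with differences of 0.59 to 0.61.

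Nqo1, the quinone reductase, gave the widest difference of the 10 genes. Its forestomach values ran from 2.09 to 3.83 (median 2.65), against -1.65 to 0.05 in lung and -1.99 to -1.01 in liver (median -1.77). No forestomach array came near the other tissues. Forestomach exceeded lung by 4.08 ± 0.14 (16.9-fold, adjusted p = 1.58e-31) and liver by 4.51 ± 0.14 (22.7-fold, adjusted p = 4.1e-34). With the processed signals the lung minus forestomach difference was -4.69. The lung value of 0.05 belonged to D0 mouse 1, the lung with high muscle and squamous genes, and the next highest lung was at -0.63. The difference of lung over liver, 0.43 ± 0.14, was below 1.5-fold.

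Ephx1, the microsomal epoxide hydrolase that hydrates arene epoxides, followed the opposite order. Its values were 1.7 to 2.43 in liver, 0.79 to 1.75 in lung and -0.25 to 0.86 in forestomach, with neighbouring ranges overlapping slightly. Liver exceeded forestomach by 1.68 ± 0.08 (3.2-fold, adjusted p = 7.1e-26) and lung by 0.74 ± 0.08 (1.67-fold, adjusted p = 4.27e-12), and lung exceeded forestomach by 0.94 ± 0.08 (1.92-fold). The dimmer Ephx1 probe kept the order, with 1.26 ± 0.08 between liver and lung, 1.73 ± 0.08 between liver and forestomach, and 0.46 ± 0.08 between lung and forestomach, the last below 1.5-fold.

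Hmox1, the inducible heme oxygenase, was highest in forestomach, where it also varied most, from -1.65 to 1.37 (median 0.62). Lung values ran from -1.71 to -1.04 and liver values from -2.8 to -2.2. Forestomach exceeded liver by 2.79 ± 0.14 (6.9-fold, adjusted p = 7.03e-25) and lung by 1.85 ± 0.14 (3.61-fold, adjusted p = 2.72e-17). The probes of Hmox1 disagreed on lung against liver. The brighter one gave 0.94 ± 0.14 higher in lung, the dimmer one 0.01 ± 0.12, so that this difference is uncertain, whereas both placed forestomach above lung and liver, the dimmer one by 1.25 ± 0.12 in each case.

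Over the 60 arrays, the gene most like each member was picked by Pearson's r among 20129 probes with a gene name. These r values mainly follow the 3 tissues, which the points share, and are given as a description. They were 0.985 for Hmox1 with Smpd1, 0.984 for Gclm with Sephs2, 0.974 for Nqo1 with Sdcbp2, 0.971 for Nfe2l2 with Rab27b, 0.969 for Gclc with Rilp and 0.959 for Slc7a11, dim on most arrays, with Klc3. Lower values were found for Ephx1 with Serping1 (0.956, over 59 arrays), Srxn1 with Naa25 (0.952), Txnrd1 with C77080 (0.94) and Keap1 with Nfic (0.911).

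Exposed mice were set against vehicle mice to ask whether BghiP altered the pathway. Without slide in the fit, no member was called at D1, D2 or D3 in lung, liver or forestomach. Nor was any other probe called (0% of the probes tested, which were 31012 for lung, 25891 for liver and 25038 for forestomach). The paper, with its own test at the same thresholds, listed differentially expressed genes for BghiP in each of these tissues. At an unadjusted p under 0.05, 1 of 9 members tested in lung was found at D3, Ephx1, against 4.81% of all probes, and 0 at D1 (2.22%) and D2 (3.4%). In liver no member reached it at D1 (3.03%), D2 (4.15%) or D3 (12.1%), and in forestomach none did at D1 (9.37%), D2 (3.65%) or D3 (1.51%). With slide as a block, a term that removes mean differences between slides, 21 lung probes (0.0677%) and 24 liver probes (0.0927%) were called at D3. None of these was a member, and no forestomach probe was called. More members and more probes then reached an unadjusted p under 0.05. In lung it was reached at D1 by Txnrd1 (9.37% of probes), at D2 by Nfe2l2, Srxn1 and Txnrd1 (3 of 9, against 12.3%) and at D3 by Nfe2l2, Txnrd1 and Ephx1 (3 of 9, against 15.6%). In liver it was reached by Txnrd1 at D1 (4.24%), by none at D2 (6.83%) and by Nfe2l2 at D3 (17.9%), and in forestomach by Gclc and Hmox1 at D1 (18.2%), by none at D2 (9.44%) and by Srxn1 at D3 (6.42%). Slc7a11 was not tested in lung and liver, where it did not pass the filter.

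Ephx1 in lung carried the clearest dose difference. Its D0 lungs read 1.11, 1.33, 0.9, 1.13 and 1.31, and its D3 lungs 1.7, 1.55, 1.51, 1.75 and 1.65. All 5 D3 values lay above all 5 D0 values, an arrangement found in 0.439% of the lung probes. The D1 lungs (0.79 to 1.39) and D2 lungs (1.19 to 1.49) overlapped with D0. The D3 change was 0.48 ± 0.11 (SE, 1.39-fold, 95% interval 1.19 to 1.63-fold), with an unadjusted p of 0.000304 and an adjusted p of 0.512, so that it did not pass.

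With slide as a block the adjusted p of this change was 0.0244, where 0.568% of lung probes were at 0.05 or less, and the change stayed below the 1.5-fold minimum. The dimmer Ephx1 probe read 0.62, 0.47, 0.37, 0.38 and 0.18 in D0 and 1.07, 0.82, 0.88, 0.85 and 0.62 in D3. These groups met at the single value of 0.62. Its change of 0.44 ± 0.1 had an adjusted p of 0.591 without and 0.0154 with the slide block. The blocked adjusted p passed 0.05 for the brighter probe when D0 mice 1, 2 or 3 or D3 mice 16, 18 or 19 were left out one at a time (0.0588 to 0.0726), with changes between 0.44 and 0.51. For the dimmer probe it passed 0.05 without D0 mouse 2 (0.0572) or D3 mouse 16 (0.0518). The number of lung probes at 0.05 or less in the blocked fit was 176 with all mice and between 2 and 488 with 1 mouse left out. Without D3 mouse 20, whose lung had high liver genes, the change was 0.47 without and 0.5 with the block (adjusted p = 0.0291 with the block). Without D0 mouse 1 it was 0.47 and 0.45.

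**Figure D2:**
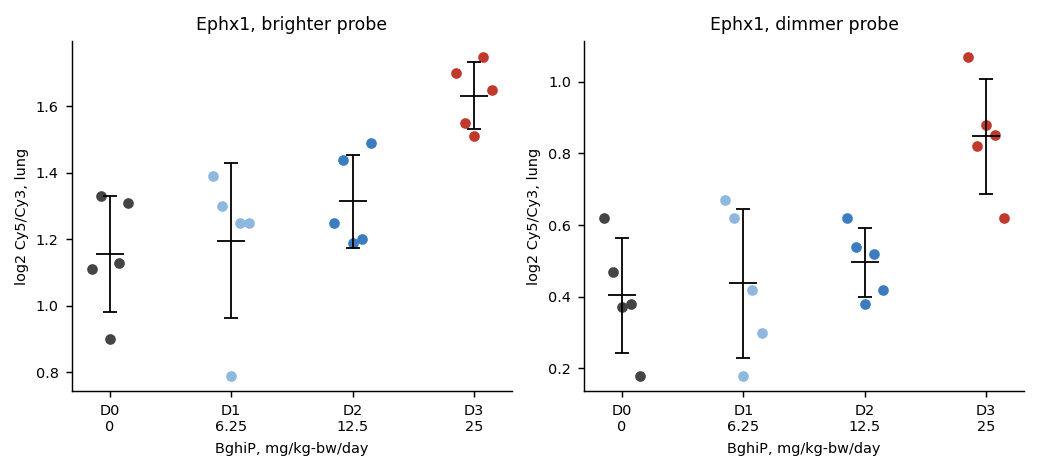
Log2 Cy5/Cy3 of Ephx1 in lung for the brighter (left) and dimmer (right) probe against the BghiP dose in mg/kg-bw/day, 1 point per mouse, with group means and SD of 5 mice. The 5 D3 lungs sit at 1.51 or above on the brighter probe, and the D0 lungs at 1.33 or below.

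The slope of Ephx1 on dose in lung was 0.0198 ± 0.004 log2 units per mg/kg-bw/day, with an adjusted p of 0.374, and of 0.0203 with the slide block, which called 1 of 9 members against 0.306% of lung probes. Without the block no member had a called slope, be it in lung (0% of probes), liver (0.239%) or forestomach (0%). Unadjusted p-values under 0.05 were found for 2 of 9 members in lung, Ephx1 and Gclc (4.78% of probes), for none of 9 in liver (14.8%) and for 1 of 10 in forestomach, Srxn1 (2.36%). With the block they were Nfe2l2, Gclc, Txnrd1 and Ephx1 in lung (4 of 9, against 14.3%), Keap1 in liver (20.6%) and Srxn1 in forestomach (8.29%). The blocked fit called no member in liver, at D3 (0.305% of probes) or as a slope (2.61%). The D3 difference of Ephx1 was -0.01 ± 0.13 in liver and 0.23 ± 0.21 in forestomach. The dimmer probe gave 0.2 ± 0.1 in liver (adjusted p = 0.462), where its slope had an unadjusted p of 0.0456 (adjusted p = 0.322), and -0.01 ± 0.23 in forestomach. The difference of the D3 change between lung and liver, 0.49 ± 0.23, had an unadjusted p of 0.0351 and an adjusted p of 1, and it was 0.25 ± 0.22 for the dimmer probe, so that lung was not shown to differ from liver.

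Among the regulators, the D3 difference of Nfe2l2 had opposite signs in lung and liver, and neither passed the test. The D0 lungs read 0.52, 0.72, 0.24, 0.52 and 0.68, and the D3 lungs 0.22, 0.16, 0.24, 0.35 and 0.41. The D3 lungs were lower on average, with groups that overlapped. The lung change was -0.26 ± 0.14 and the liver change 0.26 ± 0.15, with adjusted p of 0.998 and 0.5, and of 0.162 and 0.275 with the slide block. Their difference of -0.52 ± 0.24 had an unadjusted p of 0.037 (adjusted p = 1). No member was called for a D3 change that differed between tissues (0% of probes in each of the 3 tissue pairs). At an unadjusted p under 0.05 there were 2 members for lung against liver, Nfe2l2 and Ephx1 (2.96% of probes), 1 for lung against forestomach, Srxn1 (2.06%), and none for liver against forestomach (4.26%). The D3 difference of Keap1 was -0.04 ± 0.12 in lung, -0.15 ± 0.11 in liver and 0 ± 0.18 in forestomach.

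No glutathione gene had a called difference. Gclc at D3 was -0.29 ± 0.16 in lung, -0.19 ± 0.15 in liver and 0.05 ± 0.27 in forestomach, with overlapping groups. Leaving out 1 mouse at a time gave lung values from -0.4 to -0.14 and liver values from -0.28 to -0.07. Gclm at D3 was 0.08 ± 0.09, 0.08 ± 0.15 and 0.11 ± 0.15 in the same order, and Slc7a11 was 0.06 ± 0.36 in forestomach, or 0.94 with the processed signals (adjusted p = 0.99).

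In the thioredoxin arm, Srxn1 in forestomach read 0.17, -0.06, -0.01, 0.14 and 0.49 at D0 and 0.46, 0.63, 0.12, 0.21 and 0.66 at D3. The D3 values were higher on average and on each of the 5 slides, with groups that overlapped. The change was 0.27 ± 0.16 (adjusted p = 1, and 0.774 with the slide block). Txnrd1 in lung read -1.27, -1.18, -1.49, -1.02 and -0.91 at D0 and -0.98, -1.08, -1.29, -0.83 and -0.7 at D3. The D3 value was above the D0 value on each of the 5 slides, with overlapping groups, and the change of 0.2 had an SE of 0.15 without and 0.05 with the slide block (adjusted p = 0.998 and 0.0906). The share of all lung or forestomach probes with D3 above D0 on every slide was not determined.

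Nqo1, the classical readout of Nrf2 activity, had no called change at D3 in any tissue. Its D0 lungs read 0.05, -1.61, -0.63, -1.35 and -1.61, and its D3 lungs -1.25, -1.55, -0.74, -1.26 and -1.62. The highest value in D0 was the lung of mouse 1. The change of -0.25 ± 0.25 became 0.01 without that mouse. For liver it was -0.04 ± 0.17 and for forestomach -0.17 ± 0.36. That of Hmox1 was -0.02 ± 0.12 in lung, 0.13 ± 0.11 in liver and 0.3 ± 0.44 in forestomach. Hmox1's dimmer probe gave -0.14 ± 0.24, 0.12 ± 0.12 and -0.17 ± 0.28, with the other sign in forestomach.

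How large a change these data leave room for is given by the 95% intervals, here those of the fit without a slide block. At D3 the interval lay within 1.5-fold in either direction for 6 of 9 lung members, 9 of 9 liver members and 4 of 10 forestomach members, and within 2-fold for 9, 9 and 9. Nqo1 at D3 had intervals of 0.582 to 1.21-fold in lung, 0.766 to 1.24-fold in liver and 0.525 to 1.5-fold in forestomach. For Hmox1 they were 0.83 to 1.17-fold, 0.939 to 1.27-fold and 0.648 to 2.35-fold. These ratios were not background-subtracted, and Nqo1 was dim in liver, with a log2 Cy5 of 6.77 to 7.83. Slc7a11, not well above background there, read 6 to 6.27. With processed signals the D3 change of Nqo1 in lung was 0.01, so that the intervals hold for this processing only. Over members, the D3 change had a median of -0.04 for lung, 0.04 for liver and 0.06 for forestomach, against 0.01, 0 and 0.01 over all probes. With the slide block, D3 intervals in log2 units excluded 0 in lung for Nfe2l2 (-0.45 to -0.07), Txnrd1 (0.09 to 0.31) and Ephx1 (0.31 to 0.65). They also did so for Srxn1 in forestomach (0.05 to 0.49) and, only just, for Nfe2l2 in liver (0 to 0.6 when rounded).

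**Figure D3:**
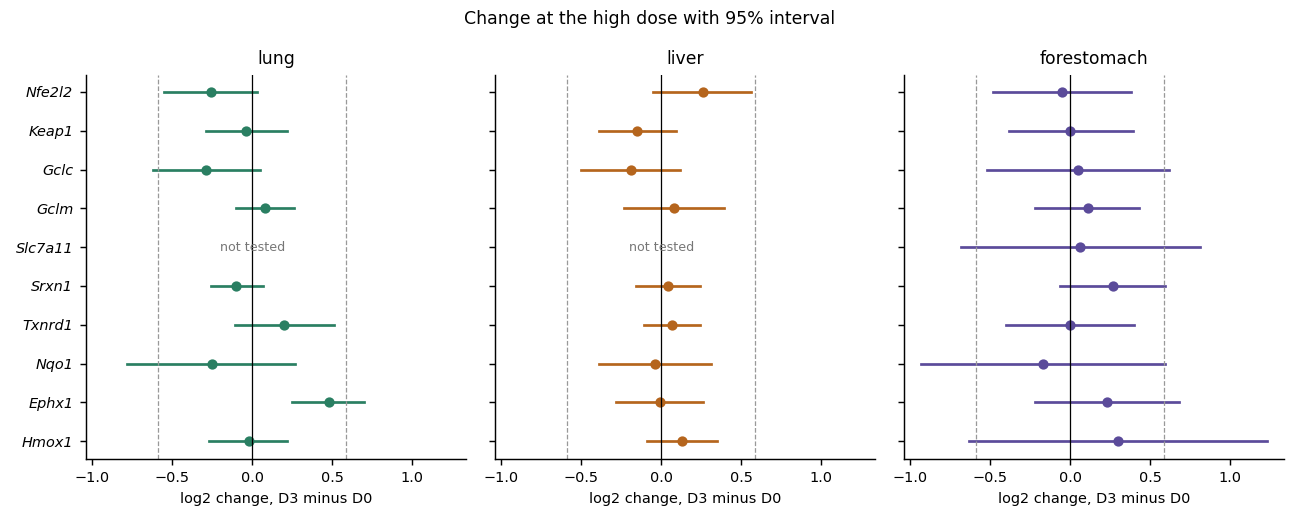
Change at D3 (25 mg/kg-bw/day minus vehicle, log2 units) of each member in lung, liver and forestomach, with 95% intervals from the limma fit without a slide block and dashed lines at 1.5-fold. Ephx1 in lung had the interval that excluded 0, from 0.25 to 0.7, and intervals were widest for Hmox1 and Nqo1 in forestomach.

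Forestomach values of 5 members were correlated with the level of glandular stomach genes. Over the 20 forestomach arrays, Nqo1 had r = 0.847 and rho = 0.901 with the mean of the 7 glandular genes (permutation p = 2e-05 and 1e-05, the latter the smallest that 100000 resamples can give, adjusted p = 2e-04 and 1e-04 over 10 relations). Ephx1 ran the other way at r = -0.766 and rho = -0.752 (permutation p = 0.00024 and 0.00028, adjusted p = 0.0012 and 0.0014), as did Hmox1 at r = -0.677 and rho = -0.681 (permutation p = 0.00079 and 0.00128, adjusted p = 0.00263 and 0.00427). Gclc had r = 0.595 and rho = 0.6 (permutation p = 0.00652 and 0.00643, adjusted p = 0.0163 and 0.014). The highest forestomach Gclc, 1.14, was in D0 mouse 2, whose array had high alveolar genes (4.65) and a glandular level of 6.66. The part of that array in the relation was not tested.

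Srxn1 had r = -0.562 and rho = -0.594 (permutation p = 0.0118 and 0.00698, adjusted p = 0.0203 and 0.014). No relation is given for Slc7a11, which was well above background on 12 of the 20 arrays. The other 4 members had r between -0.108 and 0.109. These relations were examined after marker levels had been seen. Other marker lists differed between the same arrays. Genes of pancreatic acinar cells averaged 0.89 to 1.27 in mice 7, 9, 10 and 12, which had glandular levels of 6.88 or more. Relations of the members to those genes were not tested. Without the 2 arrays farthest from the median glandular level, r was 0.834 for Nqo1, -0.753 for Ephx1, -0.659 for Hmox1, 0.619 for Gclc and -0.587 for Srxn1. With slide means removed it was 0.851, -0.737, -0.614, 0.736 and -0.531 in that order, and with dose means removed 0.82, -0.773, -0.608, 0.51 and -0.607. Within each of the 5 slides, with 4 forestomach arrays each, r for Nqo1 was between 0.686 and 0.996 and that for Ephx1 between -0.99 and -0.179. Hmox1 and Gclc had the other sign on 1 slide, the same for both. Hmox1 was at 0.715 there and between -0.995 and -0.603 on the other 4 slides, and Gclc at -0.627 and between 0.82 and 0.961.

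Glandular levels were uneven, with the widest step between 2.72 and 4.3. Among the 12 arrays above it, r was 0.867 for Nqo1, -0.755 for Hmox1, -0.667 for Ephx1, -0.709 for Srxn1 and 0.425 for Gclc. Among the 8 arrays below it, r was 0.502, -0.241, 0.119, 0.22 and 0.161 in the same order. Nqo1 was between 2.09 and 2.53 on the 8 lower arrays, which is still above every lung and liver array, and between 2.14 and 3.83 on the 12 others. Hmox1 ranged from 0.53 to 1.37 on the 8 and from -1.65 to 1.17 on the 12.

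**Figure D4:**
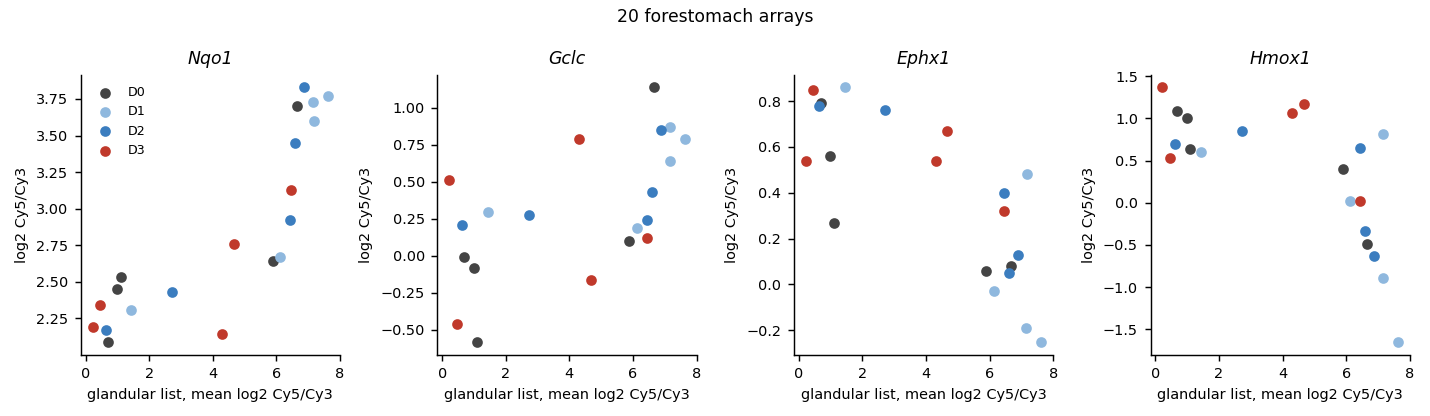
Log2 Cy5/Cy3 of Nqo1, Gclc, Ephx1 and Hmox1 (vertical axes) against the mean log2 Cy5/Cy3 of 7 glandular stomach genes on the 20 forestomach arrays, coloured by dose. The highest Nqo1 (3.83) and the lowest Hmox1 (-1.65) and Ephx1 (-0.25) were all on arrays with a glandular level of 4.3 or more.

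The glandular level also differed between dose groups, with means of 3.06 at D0, 5.91 at D1, 4.65 at D2 and 3.22 at D3, and its part in the forestomach dose values was examined with a covariate. At D1, Nqo1 was 0.53 ± 0.36 higher and Hmox1 0.75 ± 0.44 lower than at D0 (log2 change ± SE, adjusted p = 0.649 and 0.6). With the glandular level as a covariate these values were 0.02 ± 0.23 and -0.28 ± 0.39. At D3 the same covariate changed Nqo1 from -0.17 to -0.2 and Srxn1 from 0.27 to 0.28 ± 0.13, and no probe was called with it at any dose.

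A wider list of 81 genes of the pathway was set beside the members, grouped by role. None of its 79 tested genes in lung or 80 in liver and in forestomach was called at any dose, and its median D3 change was 0.05, 0.07 and 0.04. At an unadjusted p under 0.05 there were 7 at D3 in lung (4.81% of all probes), 7 in liver (12.1%) and none in forestomach (1.51%). The genes with the lowest p at D3 in lung were Gpx1 (0.25 ± 0.09) and Gpx4 (0.23 ± 0.09), glutathione peroxidases, and Rbx1 (0.25 ± 0.09), a subunit of the ligase that marks Nrf2. In liver they were Gsk3b (-0.27 ± 0.08), a kinase that promotes Nrf2 breakdown, Sqstm1 (0.27 ± 0.1), an autophagy receptor that binds Keap1, and Trib3 (1.04 ± 0.45). In forestomach they were Gstm2 (0.35 ± 0.18), Ftl1 (-0.62 ± 0.38) and Gstm6 (1.08 ± 0.7). Adjusted p was 0.201 or more for all 9, and 0.0616 or more with the slide block.

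Of the 81 genes, 79 passed the filter in all 3 tissues, whereas Abcc2 passed in liver and Adh7 in forestomach alone. Of the 79, 20 were higher and 40 lower in lung than in liver, 25 higher and 33 lower in lung than in forestomach, and 35 higher and 25 lower in liver than in forestomach, against the shares of probes given for the members. Of 16 conjugation enzymes, 14 were called lower and 1 higher in lung than in liver, 8 lower and 3 higher in lung than in forestomach, and 9 higher and 5 lower in liver than in forestomach. Among 11 regulators, 5 were called higher and 1 lower in lung than in liver, and 7 higher and 1 lower than in forestomach. Among 7 heme and iron genes, 4 were called higher and 1 lower in lung than in forestomach, and 1 higher and 3 lower than in liver. The same shares of probes apply to these counts by role. Of 6 genes of NADPH supply, 5 were called lower and 0 higher in lung than in forestomach, 4 lower and 1 higher in liver than in forestomach, and 2 lower and 2 higher in lung than in liver. The gene of the first enzyme of the pentose phosphate pathway, G6pdx, averaged 1.47 ± 0.47 in forestomach (SD, n = 20), -0.86 ± 0.22 in lung and -3.4 ± 0.25 in liver, a 29.2-fold excess of forestomach over liver. Idh1 was instead highest in liver, at 3.94 ± 0.18, which was 8.71-fold over lung.

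Forestomach was highest for Gpx2, a gastrointestinal glutathione peroxidase (121-fold over liver and 4.37-fold over lung), for the carbonyl reductase Cbr3 (113-fold over liver), for the glutathione transferase Gsta1 (171-fold over lung), for the glutaredoxin Glrx (10.3-fold over lung) and for Maff, a small Maf partner of Nrf2 (3.43-fold over liver). Liver was highest for the soluble epoxide hydrolase Ephx2 (141-fold over lung), the sulfotransferase Sult1a1 (96-fold over forestomach), catalase, Cat (20.4-fold over forestomach), Osgin1 (17.3-fold over lung), the export pump Abcg2 (15.2-fold over forestomach), the mitochondrial thioredoxin reductase Txnrd2 (7.06-fold over forestomach), Fech, which makes heme (4.24-fold over forestomach), and the ferritin light chain Ftl1 (3.74-fold over forestomach). Lung was highest for the peroxiredoxin Prdx6 (6.78-fold over forestomach) and for Gsk3b (2.89-fold over liver). These differences were called, each with an adjusted p of 2.71e-18 or less. Ephx2 was well above background on 13 of 20 lung arrays and Gsta1 on 16 of 20, so that their folds over lung rest in part on dim spots. The canalicular export pump Abcc2 averaged 6.49 ± 0.33 in liver (SD, n = 20), and with 1 of 20 lung and 2 of 20 forestomach arrays well above background no fold is given for it.

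**Figure D5:**
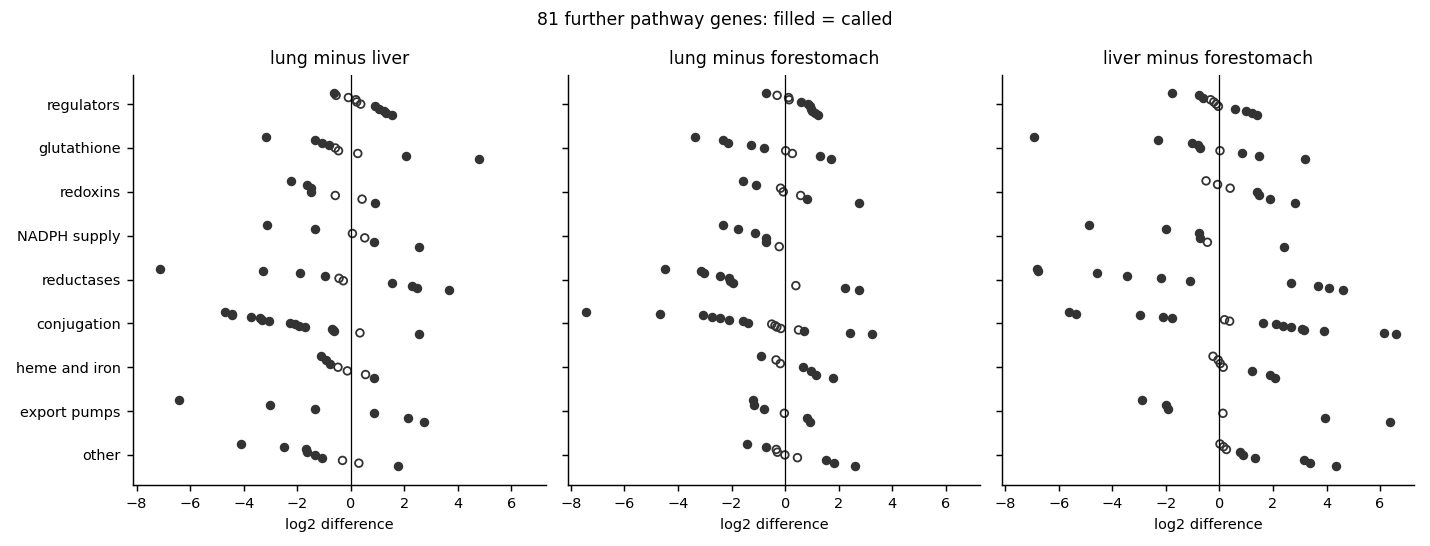
Differences in log2 Cy5/Cy3 between tissues (horizontal axis) for 81 further pathway genes grouped by role, 1 circle per gene, filled where the difference was called, Abcc2 and Adh7 included. Conjugation genes lie to the left for lung minus liver, with 14 of 16 called lower in lung.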

How the data were processed

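Per the file headers, deposited scanner files of Feature Extraction 10.7.3.1 hold median, background and processed signal intensities of 62976 spots per array. The authors also deposited log2 ratios after LOWESS, which correlated with those used here at r = 0.992 to 0.999. Median signals without background subtraction were loess-normalized within arrays (limma 3.58.1, R 4.3.3), without dye swaps. Probes well above background on at least 5 arrays of a tissue were tested with limma's moderated test, two-sided, with Benjamini-Hochberg adjustment over all probes of the comparison. Dose was fitted per tissue, tissues in a model of 12 groups. The precision is limited by 5 arrays per group. The main probe was that with the highest mean Cy5 signal. All members were named, and of the other pathway genes the 2 with the widest tissue range per role and the 3 with the lowest p at D3 per tissue. Marker lists had 1 mean per array. Members, lists and tests were chosen with earlier results of these data known. The authors' variance-shrunken F test was not run. Mouse numbers pair tissues of 1 animal by the labels. Deviations from group means of the same mouse correlated at a median r of 0.209 (lung and forestomach), 0.0539 (lung and liver) and -0.00145 (liver and forestomach). Lung and forestomach of a mouse were always on the same slide, so that animal and slide cannot be told apart in that pair. The statistical code was tested on simulated data.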

Additional observations from a re-analysis of the deposited data

Results flagged for a closer look

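In 105 groups of 5 mice in which a member was well above background on all arrays, 6 groups (5.71%) held a value whose gap to its nearest neighbour exceeded 0.71 of the group's range, and chance gives about 1 in 20. Ephx1 in the D1 lungs was 0.79 in mouse 8, with the others at 1.25 to 1.39. That lung also had the highest level of fat cell genes among lungs (4.16). Hmox1 in the D2 lungs was -1.13 in mouse 14 and -1.66 to -1.51 in the others. In the D3 livers, mouse 19 had the lowest Gclc, 2.69 against 3.07 to 3.19, and the highest Nqo1, -1.19 against -1.9 to -1.71. Nqo1 in the D1 livers was -1.68 in mouse 7 and -1.82 to -1.79 in the others. Txnrd1 in the D0 forestomachs was -0.28 in mouse 5 and -1.05 to -0.86 in the others, and that array had the highest level of fat cell genes among forestomachs (5.11). Whether fat tissue bears on these values was not tested.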

How the results depend on the processing

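The counts of called members were recomputed with other processing and without each mouse. Of 184 counts with other processing, 12 differed from the reported ones. The called slopes in lung were 1 in place of 0 with slide as a block, and the other 11 were counts between tissues, each within 1.5 times the reported one, which ranged from 6 to 9 (lung and liver), 7 to 10 (lung and forestomach) and 7 to 10 (liver and forestomach). Without 1 mouse they were 7, 8 and 8 to 9, and 0 for each dose and slope. With mouse as a replicate block the counts were again 7 of 10 for lung and liver, 8 for lung and forestomach and 8 for liver and forestomach, and 0 for the tissue differences in the D3 change. Counts against forestomach in this paragraph include Slc7a11, which passed the filter only there. Of 307 tissue differences recomputed with other settings, 2 dropped below 1.5-fold with the deposited ratios (Srxn1 lung minus liver, -0.51, and Keap1 liver minus forestomach, 0.42), and 2 became called (Gclm lung minus forestomach, -0.83 with processed signals, and Txnrd1 liver minus forestomach, 0.64 in vehicle mice alone). Nqo1 lung minus liver reached 0.61 in vehicle mice alone without being called (adjusted p = 0.122).

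Some changes at D3, none of them called, took the other sign in some settings, among them that of Nqo1 in lung, reported at -0.25. For Ephx1 in liver the change was 0.02 with normexp, 0.03 with processed signals, 0.02 with the deposited ratios and 0.01 with the slide block. With processed signals it was 0.01 for Nqo1 in lung and 0.01 for Nfe2l2 in forestomach. Without a change of sign, other settings gave 0.14 to 0.28 for Srxn1 and 0.1 to 0.25 for Ephx1 in forestomach, and 0.07 to 0.21 for Gclm in lung. Without 1 mouse, D3 changes ranged from -0.12 to 0.03 for Keap1, -0.4 to 0.01 for Nqo1 and -0.08 to 0.08 for Hmox1 in lung, from -0.05 to 0.15 for Gclm, -0.02 to 0.1 for Srxn1, -0.16 to 0.03 for Nqo1 and -0.09 to 0.07 for Ephx1 in liver, and from -0.15 to 0.08 for Nfe2l2, -0.12 to 0.31 for Gclc, -0.13 to 0.29 for Slc7a11 and -0.32 to 0.08 for Nqo1 in forestomach. The cause was not tested. The glandular covariate and the slide block without single mice were chosen after seeing the data. Slc7a11 in lung and liver, near background, was limited by signal.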
